A study of Homo sapiens with 2 samples.

Results

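The extracellular matrix genes of PLC cells were taken as every collagen chain gene, every laminin chain gene, fibronectin (FN1), both nidogens (NID1 and NID2) and perlecan (HSPG2) with a row in the expression tables of both libraries. The choice was made by gene symbol and used no measured value. It gave 60 genes of the 26228 gene names present in both tables, of which 44 were collagens and 12 were laminins. PLC is an established human liver cancer cell line. The EV library came from PLC cells carrying the empty lentiviral vector, with the genotype labelled WT. The PRSS35 library came from PLC cells that overexpressed the human protease PRSS35 from the same vector. Both kinds of cells were transduced and selected with puromycin, and neither received a further treatment. There was 1 library per condition, so no difference below has a replicate check, no p-value was computed, and an effect of PRSS35 cannot be told apart from chance variation between the cultures.

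Expression was given as FPKM, sequenced fragments scaled for transcript length and for library depth, which permits levels of different genes to be compared. Each FPKM came with a lower and an upper Cufflinks bound, written here in brackets, which covers counting and read assignment within 1 library only. Differences were taken as log2((FPKM PRSS35 + 1)/(FPKM EV + 1)). A gene was called at a level when its mean over both libraries reached 1 FPKM, and 11118 genes did. Over those genes the median difference was 0.06. Total-sum scaling expresses every FPKM relative to the total over all loci of its library. It is named below for many but not all genes whose direction it changes. An exact 0 in these tables can be a failed estimate, so a gene at 0 is described as listed at 0 and no fold is given for it.

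PRSS35 itself was 0.643 FPKM (0.445 to 0.841) in the EV library and 1836 (1759 to 1912) in the PRSS35 library, in the direction of the labels. Of 13 hepatocyte markers, 12 passed the level, and their summed FPKM was 3776 in EV and 5507 in PRSS35. Bounds of 7 of the 12 lay higher in PRSS35 and those of 2 lay lower, beside 25.2% and 15.5% of all genes at a level. The 2 lower were APOA1, at 576.2 and 493.6 FPKM, and APOA2, at 218.1 and 178.5. Marker values under total-sum scaling were not taken. SERPINA1, the antitrypsin gene, made up most of the hepatocyte marker sum, at 2528 and 4239 FPKM. ALB, which defines mature hepatocytes, was low at 4.05 and 5.21 FPKM. Of 9 fibroblast and stellate cell markers, 6 were listed at 0 in both libraries, and the list summed to 4.59 FPKM in EV and 1.68 in PRSS35. TAGLN accounted for most of the EV sum, at 3.09 FPKM, and was listed at 0 in PRSS35. PDGFRB, the other marker of that list at a level, was 1.02 and 1.27 FPKM with overlapping bounds. The 6 endothelial markers summed to 0.104 and 0.171 FPKM. PTPRC, the pan-leukocyte marker, was listed at 0 in both libraries, whereas the lysosomal and myeloid genes CD68 and LYZ stood at 297.3 and 94.0 FPKM in EV and at 277.9 and 103.7 in PRSS35. Whether the differences in hepatocyte markers or TAGLN bear on the matrix genes was not tested. In bulk RNA, fewer cells of a type and less RNA per cell cannot be told apart.

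Collagens are trimers whose chains wind around one another through long repeats of glycine followed by a pair of other residues, written Gly-X-Y. Laminins are heterotrimers of an alpha, a beta and a gamma chain, and together with collagen IV, nidogen and perlecan they form basement membranes, the thin sheets on which epithelial cells rest. Fibronectin is a large adhesive glycoprotein that hepatocytes secrete into plasma and that other cells assemble into fibrils. In liver, fibril-forming collagens are known mainly as products of activated stellate cells and fibroblasts.

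Most of the family lay below the level. Of the 60 genes, 17 passed the level, beside 11118 of all 26228 genes. Listed at 0 in both libraries were 16 of the 60, beside 9615 of all 26228. A further 23 had a mean under 0.3 FPKM and 4 lay between 0.3 and 1 FPKM. These 4 were LAMA3 (0.884 in EV, 1.09 in PRSS35), COL1A1 (0.699, 0.754), COL5A2 (0.545, 0.725) and COL7A1 (0.574, 0.396). The level separated close values, since COL5A1 passed with a mean of 1.04 FPKM and LAMA3 did not with 0.989. COL5A1 passed through the PRSS35 library alone. No matrix gene under the level had bounds that lay apart between the libraries. Without the level, bounds lay apart for 12.05% of all 26228 genes higher in PRSS35 and for 7.51% lower. At a level those shares were 25.2% and 15.5%, so under the level they were smaller than 12.05% and 7.51%. The share under the level was not taken by itself, so that count has only this upper limit as background. The count does not show that these genes were unchanged. Summed over all 60 genes, FPKM came to 261.7 in EV and 270.4 in PRSS35. FN1 made up 44.7% of that sum in EV and 46.6% in PRSS35, the collagens 25.2% and 26.5%, and the laminins 18.5% and 16.1%. The plot by class shows a similar structure in both libraries, with at most 3 chains per class above 1 FPKM. COL5A1, LAMC3 and LAMA3 were above 1 FPKM in the PRSS35 library only.

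**Figure D1:**
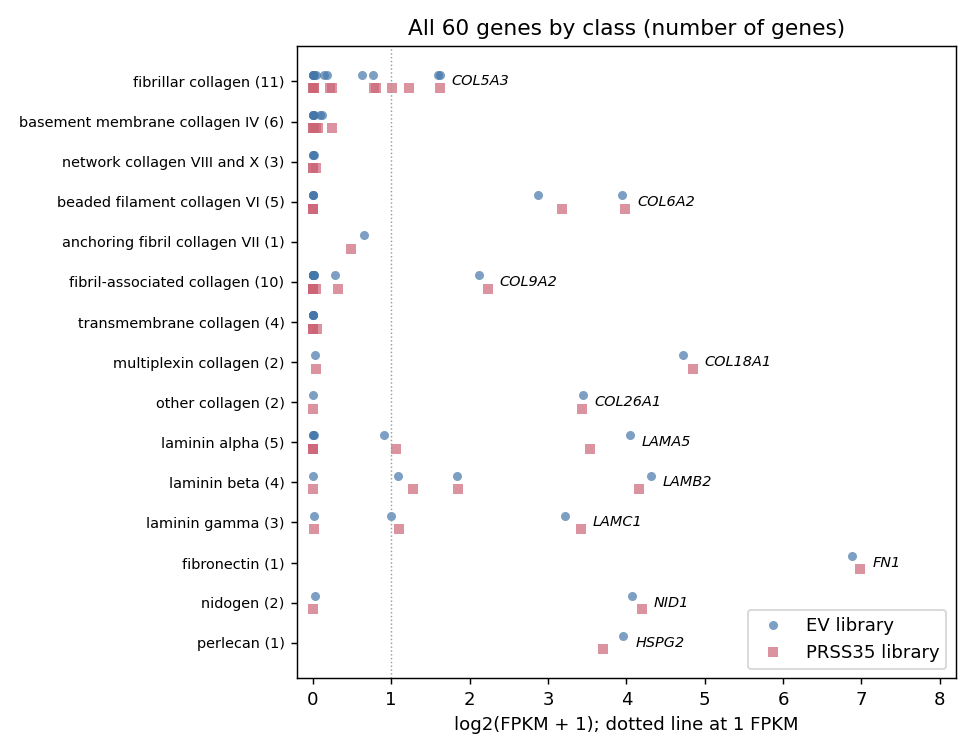
Level of each of the 60 matrix genes as log2(FPKM + 1), in rows by class with the number of genes in brackets, circles for the EV library and squares for the PRSS35 library, and a dotted line at 1 FPKM. FN1 stands alone at the right at 116.8 and 125.9 FPKM, and all 6 collagen IV genes lie left of the line in both libraries.

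Fibronectin was the most abundant of the 60 transcripts. FN1 (chr2:216225163-216300863, hg19) stood at 116.8 FPKM (114.3 to 119.4) in EV and 125.9 (122.8 to 128.9) in PRSS35, and ranked 1359 and 1291 among all genes. Its difference was 0.11 (counting SE 0.02), with bounds that lay apart, and 0.04 when FPKM was scaled by the upper quartile, where the bounds overlapped. The 250 bases before its start are shown because FN1 led the family and has GC boxes there. In RefSeq windows of 300 bases around the start, 14 of 15 matrix genes at a level, FN1 included, held a GC box. Over all genes at the level 78.3% did. A GC box is the motif GGGCGG, read on either strand, to which factors of the Sp family bind, and CCAAT is the motif of the NF-Y factor. Both are in capitals below, as is TATAAA where present, on whichever strand they occur. The sequence is RefSeq's on GRCh38.p14, minus strand, chr2:215436069-215436318, printed 5′ to 3′.
FN1: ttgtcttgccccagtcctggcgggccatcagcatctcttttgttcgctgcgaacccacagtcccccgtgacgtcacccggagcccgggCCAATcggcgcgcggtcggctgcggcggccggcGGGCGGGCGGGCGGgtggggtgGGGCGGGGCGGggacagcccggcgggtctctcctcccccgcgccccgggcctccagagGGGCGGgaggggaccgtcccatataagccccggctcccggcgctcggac

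Among the collagens, COL18A1, COL6A2, COL26A1 and COL6A1 together held 84.9% of the summed collagen FPKM in EV and 84.6% in PRSS35. COL18A1 (chr21:46825052-46934773, hg19), the multiplexin whose C-terminal fragment is endostatin, was the highest, at 25.4 FPKM (22.2 to 28.7) in EV and 27.9 (24.5 to 31.2) in PRSS35, and its bounds overlapped. In EV the end of its locus overlapped that of the folate carrier SLC19A1, listed at 61.6 FPKM, from 46934629 to 46934773 only. Without strand in the counting, reads of the 2 genes within that overlap cannot be told apart. In PRSS35 the COL18A1 locus ended at 46933634, with no overlap with SLC19A1. COL6A1 and COL6A2 encode chains of collagen VI, which forms beaded filaments around cells. COL6A2 was 14.4 FPKM (13.4 to 15.3) in EV and 14.8 (13.9 to 15.8) in PRSS35, overlapping. COL6A1 was 6.34 (5.81 to 6.86) and 8.04 (7.52 to 8.55), higher in PRSS35 by 0.30 (counting SE 0.07) with bounds apart. The collagen VI trimer also needs a longer chain of the COL6A3 kind, and COL6A3 was at 0.00375 and 0.00374 FPKM while COL6A5 and COL6A6 were listed at 0 in both libraries. COL18A1, COL6A1 and COL6A2, 3 of the 4 highest collagens, lie within 727.7 kb of chromosome 21 (chr21:46825052-47552763).

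COL26A1, a short secreted collagen, was 9.92 FPKM (9.18 to 10.7) in EV and 9.83 (9.09 to 10.6) in PRSS35. On the log2 scale it lay at -0.011, and under total-sum scaling at 0.63. COL9A2, a chain of the fibril-associated collagen IX, was 3.36 (2.92 to 3.80) and 3.70 (3.27 to 4.13). Neither gene had bounds apart. The partners of COL9A2, COL9A1 and COL9A3, were listed at 0 in both libraries, although TCFL5, whose locus overlaps COL9A3, was at 10.7 and 14.1 FPKM.

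The COL18A1 windows are printed because this gene has a pair of RefSeq starts that differ in base composition. Both are on the plus strand of GRCh38.p14, the upstream start at chr21:45404915-45405164 with 37 CpG dinucleotides and the downstream start at chr21:45455272-45455521 with 9. Capitals mark the same motifs as above, and CCGCCC is the GC box read on the opposite strand. The gene-level FPKM does not separate the starts.
COL18A1 upstream start: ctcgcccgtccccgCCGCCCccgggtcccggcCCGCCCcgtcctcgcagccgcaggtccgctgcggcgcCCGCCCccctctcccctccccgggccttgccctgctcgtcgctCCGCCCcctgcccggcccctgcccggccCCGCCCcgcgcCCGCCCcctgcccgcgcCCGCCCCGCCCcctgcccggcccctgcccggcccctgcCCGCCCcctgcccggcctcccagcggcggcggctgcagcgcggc
COL18A1 downstream start: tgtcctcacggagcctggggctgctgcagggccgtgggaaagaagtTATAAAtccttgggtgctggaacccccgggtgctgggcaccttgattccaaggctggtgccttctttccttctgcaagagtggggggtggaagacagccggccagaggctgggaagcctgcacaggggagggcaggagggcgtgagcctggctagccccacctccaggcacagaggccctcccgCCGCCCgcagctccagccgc

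The fibrillar collagens, which build the rope-like fibrils of connective tissue, were low as a class, with a summed FPKM of 5.62 in EV and 6.30 in PRSS35 over 11 genes. COL5A1, listed at 0 in EV, set that direction, and without it the sums were 5.62 and 4.21. Only 3 of the 11 passed the level. COL5A3, a chain of collagen V, was 2.07 FPKM (1.86 to 2.28) in EV and 1.33 (1.16 to 1.51) in PRSS35, a ratio of 0.644, with bounds apart. COL27A1 was 2.03 (1.75 to 2.31) and 1.02 (0.882 to 1.16), a ratio of 0.503, also with bounds apart. The COL27A1 locus also held unnamed assembled loci, at 1.59 and 0.639 FPKM in EV and at 2.2 in PRSS35, and the part of that assembly in the difference was not tested. On the log2 scale COL5A3 lay at -0.40 and COL27A1 at -0.58, and under total-sum scaling at 0.048 and -0.17.

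COL5A1 (chr9:137533651-137736688, hg19), the main collagen V chain, was listed at 0 in EV, against 2.09 FPKM (1.84 to 2.34) in the PRSS35 library. Among the 11118 genes at a level, 102 were likewise listed at 0 in EV alone and 113 in PRSS35 alone. COL5A2, the chain that pairs with COL5A1 in the common collagen V trimer, was 0.545 FPKM (0.443 to 0.647) in EV and 0.725 (0.607 to 0.842) in PRSS35. LOC101448202, a locus that overlaps the 3′ end of COL5A1, was 6.23 FPKM in EV and 5.99 in PRSS35. COL1A1 was 0.699 and 0.754 FPKM, COL1A2 was 0.0310 and 0.00618, and COL3A1, the other major interstitial collagen, was listed at 0 in both libraries. The window before the COL5A1 start is printed to set beside those of genes detected in both libraries, with the same capitals, on the plus strand of GRCh38.p14 at chr9:134641553-134641802.
COL5A1: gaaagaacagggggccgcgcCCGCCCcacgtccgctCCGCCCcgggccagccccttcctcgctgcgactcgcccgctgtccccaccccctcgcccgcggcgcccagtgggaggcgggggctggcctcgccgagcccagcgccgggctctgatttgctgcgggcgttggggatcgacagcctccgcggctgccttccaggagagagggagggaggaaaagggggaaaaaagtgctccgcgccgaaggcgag

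Collagen IV, the network-forming collagen of every basement membrane, was nearly silent in both libraries. Its 6 genes summed to 0.161 FPKM in EV and 0.265 in PRSS35. COL4A1 was 0.0101 and 0.0276 FPKM, COL4A2 was 0.0637 and 0.0424, and COL4A3 and COL4A6 were listed at 0 in both. COL4A5 was the highest, at 0.0867 FPKM (0.0419 to 0.132) in EV and 0.188 (0.123 to 0.253) in PRSS35, and its bounds overlapped. At these levels a difference in collagen IV was not detectable. COL4A1 and COL4A2 are read in opposite directions from a shared start region, and the whole interval between the loci, 126 bases, is printed because 2 genes at near 0 FPKM share it. It holds 1 GC box, 1 CCAAT and 20 CpG dinucleotides, so those motifs were present in front of genes with almost no transcript. It is the plus strand of GRCh38.p14, chr13:110307158-110307283.
COL4A1-COL4A2: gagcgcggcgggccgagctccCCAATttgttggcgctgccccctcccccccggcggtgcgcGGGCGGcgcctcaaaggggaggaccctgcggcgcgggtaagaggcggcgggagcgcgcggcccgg

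The laminin genes left a single leading chain of each kind. LAMA5 held 94.5% of the summed alpha chain FPKM in EV and 90.7% in PRSS35, LAMB2 held 83.6% and 80.8% of the beta chains, and LAMC1 held 89.3% and 89.4% of the gamma chains. LAMA5 (chr20:60884116-60942368, hg19) was 15.5 FPKM (14.4 to 16.6) in EV and 10.6 (9.60 to 11.7) in PRSS35, a ratio of 0.686 and the lowest of any laminin at a level, with bounds apart. The locus was joined with MIR4758, and the antisense gene LAMA5-AS1 within it was listed at 0 in both libraries. On the log2 scale LAMA5 lay at -0.50, and under total-sum scaling at 0.16. LAMC1, the gamma chain of most laminins, was 8.29 (7.92 to 8.67) and 9.67 (9.27 to 10.1), a ratio of 1.17, with bounds apart in the opposite direction.

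The beta chains and LAMC3 had no bounds apart. LAMB2 was 18.9 FPKM (17.9 to 19.9) in EV and 16.9 (14.6 to 19.2) in PRSS35. On the log2 scale it lay at -0.15, and under total-sum scaling at 0.52. LAMB1 was 2.59 (2.34 to 2.83) and 2.60 (2.36 to 2.85). LAMB3, a chain of the epithelial anchoring laminin, was 1.13 (0.154 to 2.1) and 1.43 (0.462 to 2.41), with wide bounds, in a locus joined with MIR4260. LAMC3 was 0.989 (0.700 to 1.28) and 1.14 (0.806 to 1.47). LAMA3, an alpha chain that partners LAMB3, was below the level at 0.884 and 1.09 FPKM. LAMA1 was 0.0136 in EV and listed at 0 in PRSS35, and LAMA4 and LAMB4 were listed at 0 in both.

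The linkers of basement membranes differed in opposite directions. NID1, which bridges laminin and collagen IV, was 15.8 FPKM (14.9 to 16.7) in EV and 17.4 (16.7 to 18.0) in PRSS35, a difference of 0.12 (counting SE 0.05), with bounds separated by only 0.005 FPKM. Scaled by the upper quartile its bounds overlapped. NID2 was 0.0200 in EV and listed at 0 in PRSS35. HSPG2 (chr1:22148725-22263809, hg19), the heparan sulfate proteoglycan perlecan, was 14.6 (14.0 to 15.1) and 11.99 (11.5 to 12.5), a ratio of 0.821, with bounds apart. On the log2 scale it lay at -0.26, and under total-sum scaling at 0.40. Of the 4 genes lower in PRSS35 with bounds apart, HSPG2 had the highest mean FPKM, and its window is printed with the same capitals, on the minus strand of GRCh38.p14, chr1:21937311-21937560.
HSPG2: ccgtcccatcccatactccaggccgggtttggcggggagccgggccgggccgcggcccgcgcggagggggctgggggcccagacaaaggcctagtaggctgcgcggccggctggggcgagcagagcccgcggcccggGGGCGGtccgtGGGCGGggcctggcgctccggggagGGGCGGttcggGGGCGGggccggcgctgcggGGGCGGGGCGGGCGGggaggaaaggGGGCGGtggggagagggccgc

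**Figure D2:**
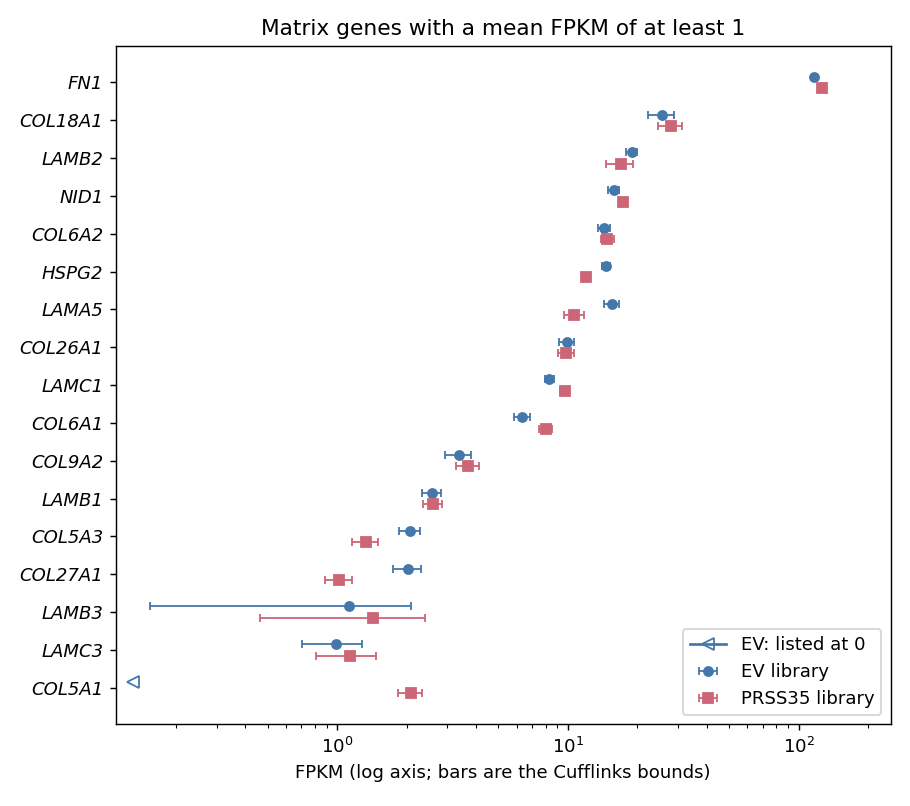
FPKM on a log axis of the 17 matrix genes with a mean of at least 1 FPKM, circles for EV and squares for PRSS35, bars from the lower to the upper Cufflinks bound, and an open triangle at the left edge where EV is listed at 0. LAMA5, HSPG2, COL5A3 and COL27A1 have squares to the left of the circles with bars apart, though the log2 difference of the first 3 is above 0 under total-sum scaling, and COL5A1 has 2.09 FPKM in PRSS35 and none in EV.

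Over the whole set, the libraries were close. Of the 17 genes at a level, 1 was past 2-fold higher in PRSS35 on the log2(FPKM + 1) scale, COL5A1, which was listed at 0 in EV, beside 303 of 11118 genes (2.73%) past 2-fold higher in that library. None was past 2-fold lower, beside 276 genes (2.48%). Bounds lay apart for 5 genes higher in PRSS35 (FN1, NID1, LAMC1, COL6A1 and COL5A1), beside 25.2% of all genes at a level, and for 4 lower (HSPG2, LAMA5, COL5A3 and COL27A1), beside 15.5%. In either direction that was 9 of 17, beside 40.7%. The median difference was 0.11 over the 17 genes and 0.06 over all genes, and 11 of the 17 were above 0. Without COL5A1 the 16 genes split into 4 higher and 4 lower, with 8 overlapping and a median of 0.08. Total-sum scaling (totals of 2.46903e+06 FPKM in EV and 1.50853e+06 in PRSS35) moved the median of all genes to 0.67 and that of the matrix genes to 0.61, and left bounds apart for 13 of the 17 higher and 0 lower, beside 87.0% and 2.41% of all genes at a level under that scaling. LAMA3 then also passed the level, with bounds apart and higher. Directions below are those of FPKM as deposited.

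The way a locus was built also differed between genes. Of the 17, 8 were assembled from reads in both libraries, 4 in EV only (NID1, HSPG2, COL6A1 and COL9A2), 1 in PRSS35 only (COL6A2), and 4 carried an annotated identifier in both (COL26A1, LAMC1, LAMB1 and COL5A3). Among these last 4, LAMC1 was higher and COL5A3 lower with bounds apart. Of all 2382 genes at a level with an annotated identifier in both, 23.5% lay apart higher and 6.84% lower. Assembly sets the transcript length that FPKM divides by, and its part in the other differences was not tested.

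**Figure D3:**
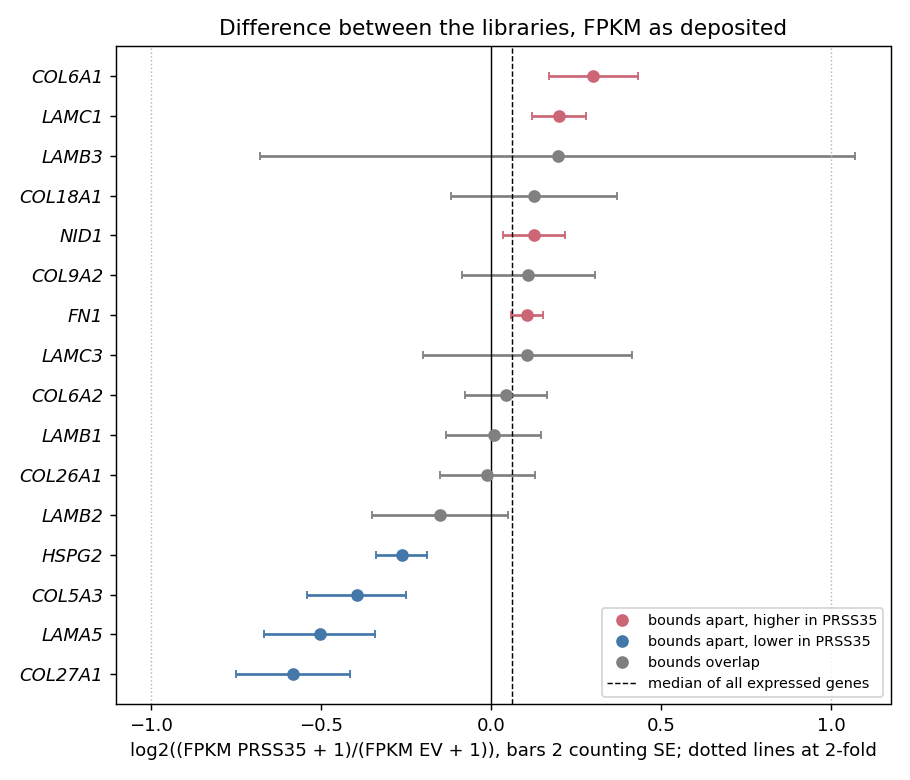
Difference between the libraries, log2((FPKM PRSS35 + 1)/(FPKM EV + 1)), for the 16 matrix genes at a level and above 0 in both, with bars of 2 counting SE, a dashed line at the median of all expressed genes (0.06) and dotted lines at 2-fold. COL27A1 lies lowest at -0.58 and COL6A1 highest at 0.30, and under total-sum scaling HSPG2, LAMA5 and COL5A3 move to above 0.

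Ratios between chains within a library do not depend on how libraries are scaled. LAMA5 over LAMC1 was 1.87 ± 0.08 (counting SE) in EV and 1.10 ± 0.06 in PRSS35, so the leading alpha chain exceeded the leading gamma chain in EV and stood close to it in PRSS35. LAMB2 over LAMC1 was 2.28 ± 0.08 and 1.75 ± 0.12. LAMA5 over LAMB2 was 0.821 ± 0.04 and 0.629 ± 0.05. The ratio of LAMB2 to LAMB1 was 7.31 ± 0.40 and 6.51 ± 0.54, within 2 counting SE of each other. COL6A2 over COL6A1 was 2.27 ± 0.12 and 1.85 ± 0.08. HSPG2 over NID1 was 0.922 ± 0.03 and 0.691 ± 0.02, and COL5A3 over COL5A2 was 3.80 ± 0.41 and 1.84 ± 0.19. COL1A1 over COL1A2, at 22.6 ± 10.3 and 122.1 ± 122.6, rested on a COL1A2 level near 0 and allowed no comparison. The SEs leave out the spread between cultures, which 1 library per condition does not give.

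**Figure D4:**
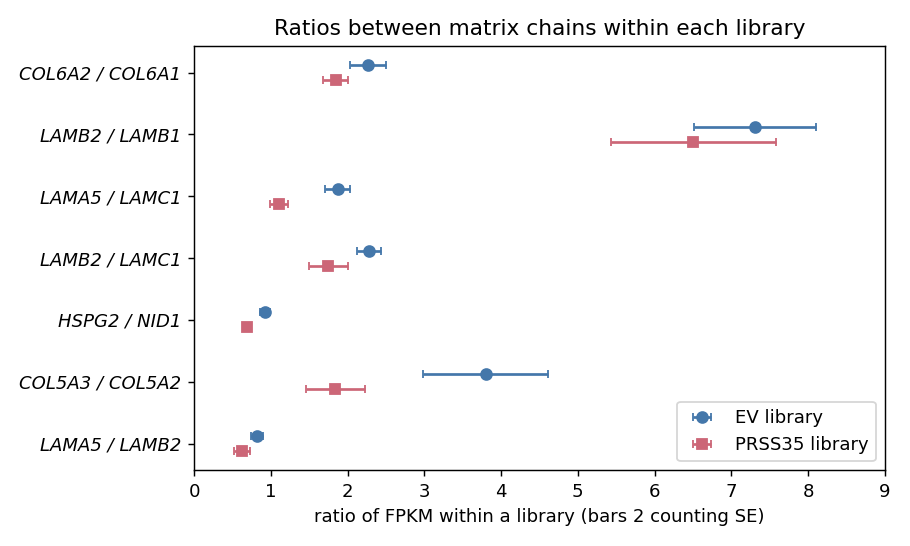
Ratio of FPKM between matrix chains within each library, circles for EV and squares for PRSS35, bars of 2 counting SE. LAMA5 over LAMC1 goes from 1.87 in EV to 1.10 in PRSS35, and LAMB2 over LAMB1 overlaps between libraries.

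Several genes that fold, modify, export and process collagen stood far above the collagens themselves. Of 34 measured, 22 passed the level, none was past 2-fold in either direction, and their median difference was 0.09. Bounds lay apart for 6 of the 22 higher in PRSS35 and 1 lower, beside 25.2% and 15.5% of all genes, so the higher count was near the background. PPIB, the cyclophilin of the prolyl hydroxylation complex of the endoplasmic reticulum, was 1021 FPKM in EV and 1240 in PRSS35. P4HB, the beta subunit of the collagen prolyl hydroxylase, was 435.8 and 514.9, and CRTAP, a partner in the complex of PPIB, was 24.0 and 29.1. The prolyl isomerase FKBP10 was 76.6 and 93.0, the lysyl hydroxylase PLOD2 was 3.59 and 4.52, and P3H3 was 3.86 and 4.89. These 6 differed by 0.24 to 0.28.

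The gene with bounds apart in the other direction was MIA3, which loads procollagen for export from the endoplasmic reticulum, at 2.44 and 1.89 FPKM (-0.25, or 0.23 under total-sum scaling). PCOLCE, the enhancer of procollagen C-proteinase, was 8.34 and 6.67 with overlapping bounds (-0.29, or 0.34 under total-sum scaling). SERPINH1, the collagen chaperone, was 86.0 and 86.9. Scaled by the upper quartile, 4 of the 22 genes lay apart higher and 3 lower, beside 18.4% and 20.7% of all genes. Under total-sum scaling 21 lay apart higher and 0 lower, beside 87.0% and 2.41% of all genes.

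Of 29 receptors and matrix partners, 18 passed the level, with a median difference of 0.05, 1 past 2-fold higher and 1 past 2-fold lower, beside 2.73% and 2.48% of all genes. Both were laminin receptor chains listed at 0 in 1 library, in loci assembled from reads. ITGB4 was listed at 0 in EV, against 13.7 FPKM in the PRSS35 library, and ITGA7 was 9.33 in EV and listed at 0 in PRSS35. Bounds lay apart for 6 of the 18 higher and 2 lower, these 2 genes included, beside 25.2% and 15.5% of all genes. The collagen receptor chain ITGA11 was 0.793 and 2.51 (0.97, or 1.38 and past 2-fold under total-sum scaling), ITGA1 was 12.7 and 16.2 in a locus joined with PELO (0.33), and the laminin receptor chain ITGA6 was 1.34 and 1.91 (0.32). Dystroglycan, DAG1, was 15.9 and 19.4 (0.27), and the proteoglycan SDC1 was 102.2 and 117.7. SDC4 was 75.3 and 68.4 (-0.14, or 0.56 under total-sum scaling). The beta chain shared by most matrix integrins, ITGB1, was 51.4 and 53.7, and ITGA5, its fibronectin partner, was 68.9 and 72.4, both with overlapping bounds. Vitronectin, VTN, a plasma adhesion protein made by hepatocytes, was 370.3 and 368.1 (-0.009, or 0.70 under total-sum scaling), above FN1 in both libraries.

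**Figure D5:**
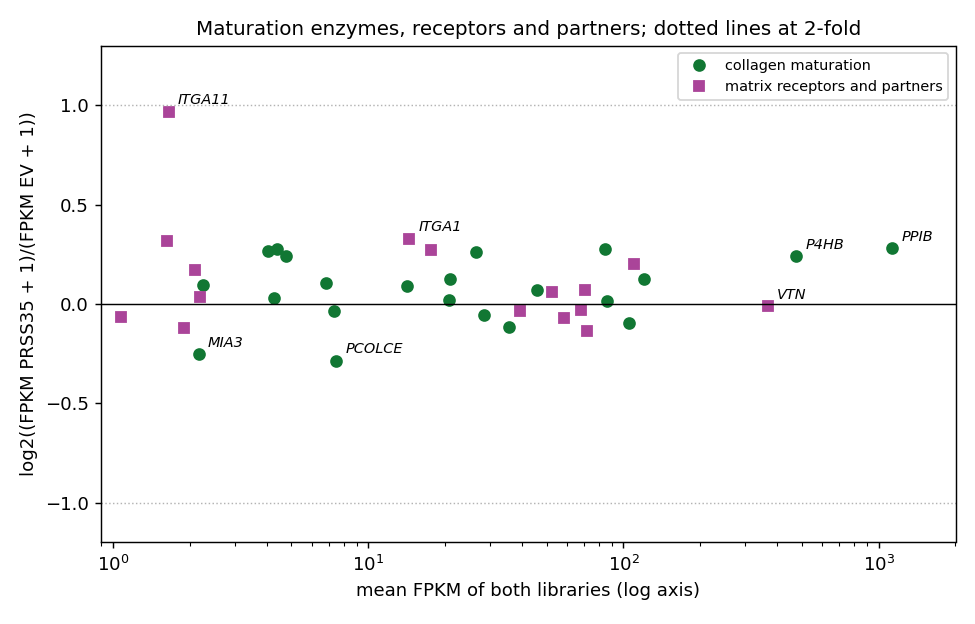
Difference between the libraries, log2((FPKM PRSS35 + 1)/(FPKM EV + 1)), against the mean FPKM on a log axis for collagen maturation genes (circles) and matrix receptors and partners (squares) at a level, with ITGB4 and ITGA7 left off because 1 library is listed at 0. ITGA11 lies just below the 2-fold line at 0.97 (1.38 under total-sum scaling), and MIA3 and PCOLCE lie lowest at -0.25 and -0.29, both above 0 under total-sum scaling.

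The promoters of the matrix genes at a level shared the GC box more than the other motifs. RefSeq windows of 300 bases, 250 before and 50 after the start, were matched for 45 of the 60 genes by symbol. GGGCGG, on either strand, was in a window of 14 of 15 genes at a level (93.3%) and of 17 of 30 below it (56.7%). Over all genes, 78.3% of 8179 at the level held it and 44.4% of 7979 below it, so most of the contrast was that between expressed and silent genes at large. The median CpG count of the richest window per gene was 36 and 17.5 in the matrix genes and 29 and 11 over all genes. CCAAT was in a window of 4 of 15 genes at a level and 13 of 30 below (43.1% and 40.4% over all genes), and TATAAA of 2 of 15 and 5 of 30 (7.60% and 17.01%). Of all 35116 windows, 44.95% held GGGCGG, 34.6% CCAAT and 11.5% TATAAA. None of the 3 motifs contains another. A match in a window is a description of its letters and was not a measurement of binding.

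The coding sequences show what sets the classes apart. In MANE Select transcripts, the representative transcript of each gene, the longest unbroken Gly-X-Y run was 23 to 343 repeats in the 44 collagens, with a median of 60.5, and 2 to 4 in the 12 laminins. COL5A1 had a run of 338 repeats and COL27A1 of 217, as in fibril-forming chains. COL6A1 and COL6A2 each had 87, COL9A2 had 113, COL18A1 had 30 and COL26A1 had 23. The 4 most abundant collagens of these cells thus had runs of 23 to 87 repeats. The first 5 repeats within 1 exon are printed for an interrupted and a fibrillar chain, with the glycine codons in capitals. They are the first found in each coding sequence and need not lie in its longest run. Both are on the plus strand of GRCh37, the assembly of hg19. The COL18A1 stretch covers codons 337 to 351 in exon 8 of 42, at chr21:46897667-46897711. The COL5A1 stretch covers codons 478 to 492 in exon 11 of 66, at chr9:137630592-137630636.
COL18A1: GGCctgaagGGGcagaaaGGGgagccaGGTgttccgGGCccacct
COL5A1: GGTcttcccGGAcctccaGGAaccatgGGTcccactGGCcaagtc

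Pairs of adjacent lysine codons were counted as well, since paired lysines are the motif the study examined for cleavage by PRSS35. At least 1 pair was encoded by 50 of the 60 genes (83.3%), beside 71.4% of 18770 coding sequences, but matrix proteins are long, with a median of 1606.5 codons against 432, and per 1000 codons the median was 1.40 pairs against 3.26. Of the 17 genes at a level, 11 encoded a pair. COL18A1, COL26A1, COL6A2, COL9A2, HSPG2 and LAMB3 encoded none. FN1 encoded 2, NID1 1, LAMB2 1, LAMC1 2, COL6A1 3, COL27A1 3, LAMC3 3, LAMA5 4, LAMB1 6, COL5A3 6 and COL5A1 7. The first pair of FN1, the most abundant transcript, and that of NID1 are printed with the lysine codons in capitals, on the minus strand of GRCh37, at chr2:216292988-216293017 (from codon 248, exon 6 of 46) and chr1:236208867-236208896 (from codon 209, exon 3 of 20). The RNA values do not show whether any of these proteins is cut.
FN1: gacacctggagcAAGAAGgataatcgagga
NID1: acgacattctcaAAGAAGgaaaacaaccaa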

How the data were processed

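Total RNA of PLC cells carrying empty vector or PRSS35 was sequenced as 1 library per condition (NEBNext Ultra kit, Illumina HiSeq). The authors' processing notes name TopHat2 2.1.0, Cuffdiff 2.2.1 and the hg19 build. The annotation release and the use of strand are not given in the sources used here. The deposited values are FPKM per locus with lower and upper bounds, estimated by the authors. Total read counts were not part of the values, so depth is unknown and precision was read only from the bounds, and the counting SE was taken as (upper bound − FPKM) / 2. The FPKM unit is depth-normalized, and intervals cover counting and assignment error only.

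FPKM was summed over loci of 1 name, and a locus joining several names counted for each. Of 66 matrix loci per library, 6 on alternate haplotypes, all of COL11A2 and at 0, were left out. Differences used a pseudocount of 1 FPKM, a mean of at least 1 FPKM and a 2-fold rule of size, with no test (Python 3.11.15, numpy 2.4.6, pandas 2.3.3, matplotlib 3.10.9). The calling steps were tested on simulated data. Every matrix gene passing the level is named, the highest of the rest may be, and from the other lists those past 2-fold and the 6 with the greatest difference. Other genes named (SERPINH1, P4HB, MIA3, SDC1, SDC4, ITGB1, ITGA5, VTN and the low matrix genes) were chosen after their values were seen. The genes, lists, motifs and codon pairs were chosen with earlier results of these data known.

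Promoters came from the RefSeq table (GRCh38.p14) and coding sequences from the GENCODE annotation of GRCh37. Protein sequences were not used here, and values of 1 matrix gene are not reported here.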

Additional observations from a re-analysis of the deposited data

How the results depend on the processing

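No paired analysis was possible because the conditions had 1 library apiece. The count of matrix genes past 2-fold higher was 1 and fell to 0 with a pseudocount of 5 FPKM, with a mean of at least 5 FPKM, with annotated identifiers in both libraries, and with values above 0 in both libraries (an alternative chosen after seeing the data), since each of these removes or shrinks COL5A1. The count with bounds apart was 9 of 17 genes. Under total-sum scaling it was 14 of 18, where LAMA3 joined the set and is 1 of the 14. With annotated identifiers it was 2 of 4, 1 higher and 1 lower, beside 23.5% and 6.84% of 2382 genes. Under total-sum scaling the median moved from 0.11 to 0.61, and COL5A3 (0.048), HSPG2 (0.40) and LAMA5 (0.16) reversed. The sum includes unnamed loci, and the named genes summed to nearly equal totals, 1.03725e+06 and 999714 FPKM. Of 43 alternative values of these counts and the median, 36 stayed within 1.5 times or the spread, and 7 moved. Of the alternative values of single genes, 113 stayed, 21 moved and 3 reversed, where a reversal was counted only for genes with bounds apart. Genes with overlapping bounds changed sign as well. LAMB2 and COL26A1 did so under total-sum scaling. COL6A2 and LAMB1 did so when scaled by the upper quartile or centred on the median of all genes at a level. The 2-fold calls over all genes became 1256 higher and 178 lower under total-sum scaling, against 303 and 276, and 183 and 184 without joined loci.

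Limits come from 1 library per condition, from exact zeros in the tables, from loci assembled separately in each library, and from strand use that is not stated.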

Other observations

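Some neighbouring matrix genes stood at different levels and others did not. COL6A1 and COL6A2, 93.1 kb apart on chromosome 21, were both among the 4 highest collagens, at 6.34 and 14.4 FPKM in EV. LAMB1 was at 2.59 and 2.60 FPKM and LAMB4, 20.2 kb away on chromosome 7, was listed at 0 in both libraries. COL5A2 was at 0.545 and 0.725 FPKM and COL3A1, 19.2 kb away on chromosome 2, was listed at 0 in both, in a locus joined with MIR3606.

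Some unnamed loci inside collagen genes had a higher FPKM than the collagen, although those inside COL27A1 in EV did not. An unnamed locus within COL11A1 (chr1:103392995-103393207 in EV, hg19) stood at 248.0 and 204.1 FPKM, where COL11A1 was at 0.129 and 0.187. One within COL4A1 (chr13:110874846-110875153 in EV, hg19) was at 24.8 and 3.05 FPKM, where COL4A1 was at 0.0101 and 0.0276. Both loci are short, and the part of their length in these FPKM values was not tested. What these loci hold was not tested. The lysyl oxidase LOXL2, below the level, was listed at 0 in EV, against 0.916 FPKM in the PRSS35 library, and the procollagen N-proteinase ADAMTS2 was at 0.287 and 0.779 with overlapping bounds.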
